A study of Mus musculus with 6 samples.

Results

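Ldah, which encodes the lipid droplet associated hydrolase, was followed together with 9 other genes of lipid droplets in the hippocampus of mice 24 h after traumatic brain injury (TBI) or sham surgery. Ldah was chosen for its difference between these very libraries, so its values are a description and carry no test. The other 9 were chosen around it by role, namely the droplet coat genes Plin2, Plin3 and Plin4, the lipolysis genes Pnpla2, Abhd5 and Lipe, the triglyceride synthases Dgat1 and Dgat2, and the lipase inhibitor Hilpda. The 10 genes were found by symbol among 52550 listed genes, and 10 of 10 passed the filter on low counts that left 18795 genes for testing.

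The libraries were made from the hippocampus of male mice, given as C57BL / 6 in the labels and as C57B6/J, aged 8 to 10 weeks, in the study's methods. There were 3 sham and 3 TBI libraries, each group from 3 mice per those methods. TBI was given by controlled cortical impact, in which a driven tip strikes the exposed cortex. Sham mice had the same ketamine and xylazine anaesthesia and the same opening of the skull without the impact, so the 2 groups share the surgery. The skull was opened over the right parietal bone, and the study describes exposing the hippocampus of both sides and examining it whole, without saying how sides were combined in a library. The comparison asks which transcripts differ in the hippocampus 1 day after the impact.

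Lipid droplets are stores of triglyceride and sterol ester that bud from the endoplasmic reticulum under a single layer of phospholipid. Perilipins coat that surface and limit the access of lipases, while adipose triglyceride lipase and hormone-sensitive lipase release fatty acids step by step. In the brain, droplets are known mostly from glia, which take up lipid from stressed neurons, and the protein made from Ldah sits on the droplet surface and has the fold of a serine hydrolase.

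The start regions of Ldah, Hilpda and Plin2 are shown because Ldah has the large difference in level and the other 2 are the members best known for a response to low oxygen or to fatty acid. Each sequence is the RefSeq window of build GRCm38.p6, running from 250 bases before to 50 bases after an annotated transcript start, written 5′ to 3′ on the strand of the gene. Capitals mark every match, on either strand, to one of 8 motifs searched.

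Ldah, chr12:8207943-8208242, plus strand: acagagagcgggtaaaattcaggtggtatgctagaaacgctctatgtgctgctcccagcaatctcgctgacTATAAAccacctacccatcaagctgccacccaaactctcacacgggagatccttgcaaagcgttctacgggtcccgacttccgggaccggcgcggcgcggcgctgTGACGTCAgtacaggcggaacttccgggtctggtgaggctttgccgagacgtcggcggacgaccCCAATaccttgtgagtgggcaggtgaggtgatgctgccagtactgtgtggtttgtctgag
Hilpda, chr6:29272376-29272675, plus strand: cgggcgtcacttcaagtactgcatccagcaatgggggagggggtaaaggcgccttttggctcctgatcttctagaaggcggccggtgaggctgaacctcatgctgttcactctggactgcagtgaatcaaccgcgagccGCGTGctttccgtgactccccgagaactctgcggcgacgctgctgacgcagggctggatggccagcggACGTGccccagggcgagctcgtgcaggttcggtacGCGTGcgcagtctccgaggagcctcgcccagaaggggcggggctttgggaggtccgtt
Plin2, chr4:86670010-86670309, minus strand: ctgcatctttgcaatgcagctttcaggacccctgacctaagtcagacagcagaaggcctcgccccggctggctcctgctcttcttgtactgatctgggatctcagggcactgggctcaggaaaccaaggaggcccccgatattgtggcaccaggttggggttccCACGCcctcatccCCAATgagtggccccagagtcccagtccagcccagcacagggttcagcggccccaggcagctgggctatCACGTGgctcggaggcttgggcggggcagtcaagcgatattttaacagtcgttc

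The Ldah window held TATAAA 179 bases before the start, the cAMP response element TGACGTCA 74 bases before it, and CCAAT 10 bases before it. Neither hypoxia response core, ACGTG or GCGTG, was found in this window or in the other Ldah window, which lies a short way upstream and shares most of its letters. Counted from the start of that other window's transcript, TATAAA lay 112 bases and TGACGTCA 7 bases before it, and CCAAT had 0 matches. The distances thus depend on the start chosen. The Hilpda window held ACGTG 43 bases before the start and GCGTG at 111 and 8 bases before it. In the Plin2 window, ACGTG lay on both strands at 4 and 3 bases before the start, overlapping as one palindrome, with GCGTG at 86 bases and CCAAT at 73 bases before the start. TGACGTCA was added to the search after the Ldah letters had been read.

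These matches are descriptions of the letters and not of factor binding. Among all 32851 windows of the same length, TGACGTCA was present in 1.79%, TATAAA in 13.6%, CCAAT in 37.4%, ACGTG in 19.6% and GCGTG in 32.4%. Among the 11 windows of the 8 members that had one, ACGTG was in 3 windows and GCGTG in 5. CCAAT was in 4 windows, 1 each of Ldah, Plin2, Plin3 and Plin4. The direct repeat bound by peroxisome proliferator receptors, the lysosomal gene element TCACGTGA (which contains ACGTG) and the classical sterol response element were in 0 of the 11, against 0.0396%, 0.974% and 0.0913% of all windows.

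The libraries summed to between 31630936 and 41771872 estimated counts. Levels are given as counts per 1000000 (CPM) of a library size adjusted by the trimmed mean of M values. In a principal component analysis of all tested genes, Sham2 stood apart on the first component and TBI1 on the second, with 33.3% and 24.6% of the variance. Genes that mark striatum summed to 2881 CPM in TBI1 against 121 to 177 in the other 5 libraries, and genes that mark cerebellum to 1320 CPM in TBI3 against 18.6 to 104 elsewhere. Sham2 had the lowest oligodendrocyte sum (2862 CPM, against 8537 to 10490) and the highest astrocyte sum (5314 CPM, against 2001 to 2664). Gfap, a filament gene of reactive astrocytes, made up most of that sum with 4055 CPM, and the other 5 astrocyte genes were mixed, with Aqp4 (401 CPM) and Sox9 (75.4 CPM) highest in Sham2, Gja1 (99.2 CPM) and Slc1a3 (599 CPM) lowest there, and Aldh1l1 (84.9 CPM) between. Hippocampal neuron markers were present in each library and summed to 731 to 1045 CPM in sham and 460 to 697 CPM in TBI, with 9 of 10 lower in TBI. In TBI1, Wfs1 made up most of the sum with 276 CPM, its highest level in any library. The other 9 were each lowest in TBI1, with Neurod6 at 29.3 CPM, Fibcd1 at 13.1 CPM and C1ql2 at 2.45 CPM there. Microglia and macrophage markers summed to 336 to 497 CPM in sham and 339 to 672 CPM in TBI, and 10 of 10 had higher mean levels in TBI. Choroid plexus genes summed to 57.1 CPM in Sham2, 240 in TBI1 and 254 in TBI3, against 2024 to 2360 in the other 3 libraries. Sums for endothelium (148 to 216 CPM), thalamus (31.5 to 233 CPM) and blood (117 to 601 CPM) overlapped between the groups, and 0 of the markers were at 0 throughout. The part of these mixtures in the results on lipid droplet genes was not tested. In such bulk samples, more cells of a type and more RNA per cell cannot be told apart.

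**Figure D1:**
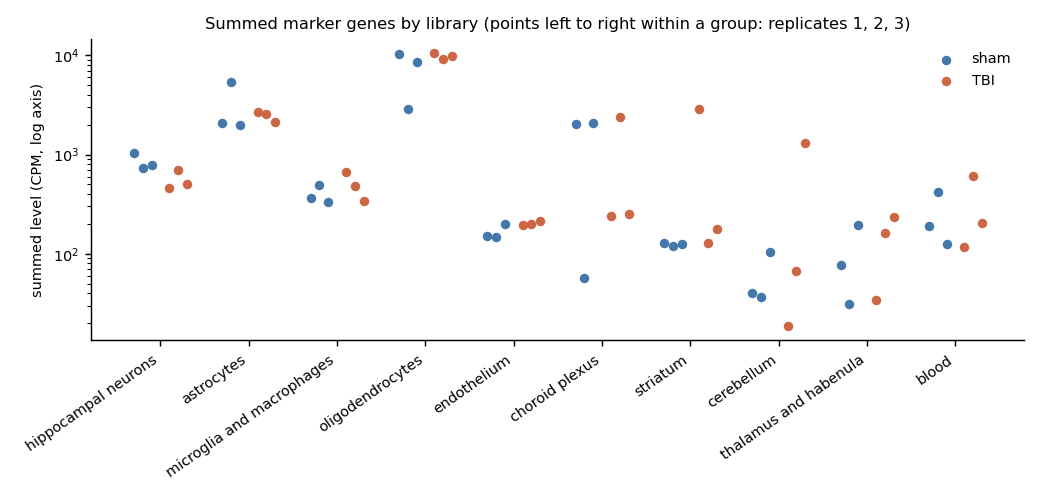
Summed CPM (log axis) of each marker list in every library, with sham and TBI libraries as separate points. TBI1 stands apart for striatal genes at 2881 CPM, TBI3 for cerebellar genes at 1320 CPM, and Sham2 for its low oligodendrocyte sum of 2862 CPM.

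Ldah (ENSMUSG00000037669.15) lies at chr12:8208107-8285759 on the plus strand of GRCm38 and has 14 annotated transcripts, of which 8 are protein coding, 5 carry a nonsense-mediated decay tag and 1 retains an intron. Its counts were 484, 417 and 444 in Sham1, Sham2 and Sham3, and 1676, 1213 and 894 in TBI1, TBI2 and TBI3. Scaled for depth, the sham libraries had a mean of 11.3 ± 0.811 CPM (SD, n = 3), and TBI1, TBI2 and TBI3 had 41.1, 38.3 and 25.1 CPM, a mean of 34.8 ± 8.53 CPM (SD, n = 3). The TBI libraries lay above the sham libraries, and the lowest of them was 2.10 times the highest sham library.

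The fitted difference in Ldah was 1.62 on the log2 scale (SE 0.218), or 3.08-fold higher in TBI. Leaving out any 1 library gave 1.49 to 1.81, the lower value without TBI1 and the higher without TBI3. Without both Sham2 and TBI1 it was 1.43, and without both TBI1 and TBI3 it was 1.76. TBI2, with 38.3 CPM of Ldah, had striatal and cerebellar sums of 129 and 66.5 CPM, within the sham ranges. Its choroid plexus and blood sums of 2360 and 601 CPM lay above the sham ranges, and its hippocampal neuron sum of 697 CPM lay below. The microglia and macrophage sums of TBI1, TBI2 and TBI3 (672, 481 and 339 CPM) ran in the same order as Ldah, while Sham2, with a sum of 497 CPM, had the lowest Ldah count of all. The part of these cells and tissues in the Ldah values was not tested. The spread was unequal, with a coefficient of variation of 7.18% in sham and 24.5% in TBI. The antisense gene Gm33037 inside the Ldah span shares 0 exonic bases with it and had 0 counts in each library.

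Over all 18795 genes, edgeR's quasi-likelihood test called 0 genes (0%) when a call required p below 0.05, a Benjamini-Hochberg adjusted p below 0.1 and at least a 1.5-fold difference in either direction. At an unadjusted p under 0.05 alone there were 806 genes (4.29%). DESeq2 with its default settings called 46 of the 20786 genes it gave an adjusted p (0.221%). None of the 9 members other than Ldah was called by either tool, and 0 of 9 had an unadjusted p under 0.05 in edgeR. These 9 are therefore given as values with intervals, and intervals that include 0 do not show that the groups were alike.

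Considering direction alone, 7 of the 9 genes other than Ldah had a log2 difference above 0, against 51.4% of all genes tested. Their median was 0.35 on the log2 scale, against 0.0091 over all genes. In 3 of the 9 (Plin2, Lipe and Dgat1) every TBI library lay above every sham library, against 4.77% of all genes with that order. With counts scaled by library totals alone, the groups overlapped for Dgat1 but not for Plin2 or Lipe.

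**Figure D2:**
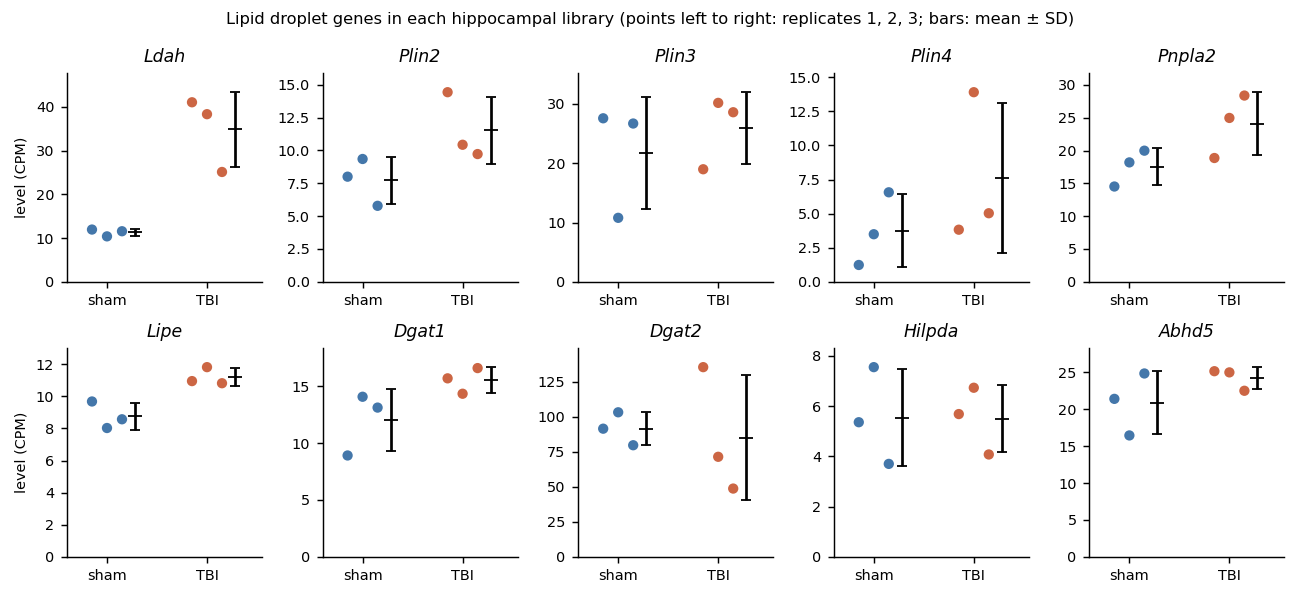
CPM of each of the 10 genes (linear axis from 0, own scale per gene) in every library, with bars for the group mean ± SD (n = 3). The TBI points of Ldah at 25.1 to 41.1 CPM sit clear of its sham points, which have a mean of 11.3 CPM, while Plin2, Lipe and Dgat1 are parted by narrow gaps and the other 6 overlap.

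Among the perilipins, Plin2 coats droplets in nearly all cell types and its protein is stable mainly when bound to lipid. Plin2 had counts of 324, 375 and 222 in Sham1, Sham2 and Sham3, and of 589, 330 and 346 in TBI1, TBI2 and TBI3. Once scaled for depth the groups did not overlap, but the lowest TBI library was only 1.04 times the highest sham library. The sham mean was 7.71 ± 1.80 CPM and the TBI mean 11.5 ± 2.54 CPM (SD, n = 3), for a log2 difference of 0.58 (SE 0.261, 95% interval -0.044 to 1.20). Its adjusted p in edgeR's quasi-likelihood test was 0.982. Leaving out any 1 library gave 0.39 to 0.74.

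Plin3 encodes a cytosolic perilipin that moves onto newly formed droplets. It had 27.6, 10.8 and 26.7 CPM in the sham libraries and 19.0, 30.2 and 28.6 CPM in TBI. Sham2 was lowest, TBI1 next, and the other 4 lay close together, so the groups overlapped. The log2 difference was 0.26 (SE 0.380, 95% interval -0.65 to 1.16), and without Sham2 it was -0.067.

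Plin4 encodes a perilipin with a long repeated amphipathic stretch, best known from fat and muscle. Its mean level per length was the lowest of the 10 genes, with counts of 50, 140 and 252 over the sham libraries against 156, 440 and 179 after TBI. Scaled for depth, the 3 sham libraries alone spanned 5.32-fold, and TBI2 was highest of all. The log2 difference of 1.01 (SE 0.714, 95% interval -0.70 to 2.72) was thus larger than that of Plin2 in size but smaller against its error. With 1 library left out it ranged from 0.23 without TBI2 to 1.68 without Sham3, and another alternative run gave 1.88. Plin4 shares 17 exonic bases with Hdgfl2 on the opposite strand, a gene with a log2 difference of -0.14 (SE 0.105).

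Pnpla2 encodes adipose triglyceride lipase, which takes the first fatty acid from triglyceride. It had counts of 588, 730 and 767 over the sham libraries against 770, 790 and 1010 after TBI. Scaled for depth, TBI2 and TBI3 lay above the sham libraries while TBI1 lay within them. Group means were 17.6 ± 2.78 CPM for sham and 24.1 ± 4.82 CPM for TBI (SD, n = 3), which gave a log2 difference of 0.45 (SE 0.211, 95% interval -0.049 to 0.96, adjusted p 0.982 in edgeR). Leaving out any 1 library gave 0.31 to 0.60.

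Abhd5 encodes the protein partner that activates this lipase. It had counts of 867, 660 and 954 over the sham libraries against 1027, 791 and 801 after TBI. Scaled for depth, the means were 20.9 ± 4.22 CPM and 24.2 ± 1.49 CPM (SD, n = 3). The groups overlapped, the low library again being Sham2, and the log2 difference was 0.21 (SE 0.185, 95% interval -0.23 to 0.66). It was 0.066 without Sham2 and 0.35 without Sham3. A stretch of 950 of its 5956 exonic bases lies opposite A730085K08Rik, whose log2 difference was 0.17 (SE 0.213).

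Lipe encodes hormone-sensitive lipase, which acts on diglyceride and sterol ester. It had 9.68, 8.03 and 8.57 CPM in sham and 11.0, 11.8 and 10.8 CPM in TBI. These were among the tightest groups of the set, parted by a 1.12-fold gap. The log2 difference was 0.35 (SE 0.170, 95% interval -0.052 to 0.76), and the adjusted p in edgeR's quasi-likelihood test was 0.982. Leaving out any 1 library gave 0.29 to 0.44. Of its 5886 exonic bases, 918 (15.6%) lie opposite the antisense gene 4732471J01Rik, and counting by strand is not stated in the sources used here. That antisense gene had counts of 137, 105 and 145 in sham and 90, 62 and 84 in TBI, a log2 difference of -0.58 (SE 0.275), which is opposite in sign to that of Lipe.

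**Figure D3:**
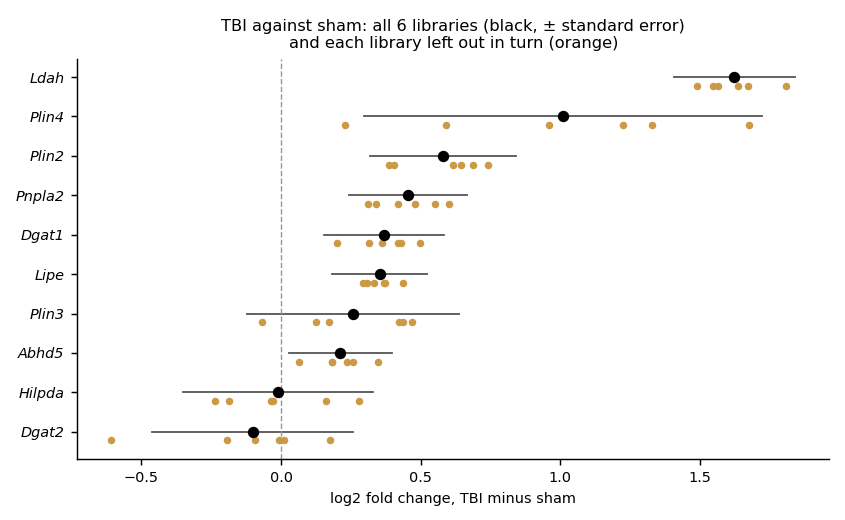
Log2 difference between TBI and sham for each of the 10 genes, as the fitted value with its standard error (black) and the values with each library left out in turn (orange). Ldah stands at 1.62, with its left-out values between 1.49 and 1.81, while those of Plin3, Dgat2 and Hilpda lie on both sides of 0.

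Dgat1 and Dgat2 are unrelated enzymes that both add the last fatty acid to triglyceride. Dgat1 had 8.91, 14.1 and 13.1 CPM in sham and 15.7, 14.3 and 16.6 CPM in TBI. The TBI libraries lay above the sham libraries by a gap of 1.02-fold, and Sham1 was the low one. The log2 difference was 0.37 (SE 0.214, 95% interval -0.14 to 0.88), and leaving out any 1 library gave 0.20 (without Sham1) to 0.50 (without Sham2).

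Dgat2 was the most abundant member and had 91.4, 103 and 79.6 CPM in sham and 135, 71.3 and 48.7 CPM in TBI. TBI1 lay above the sham libraries and TBI2 and TBI3 lay below them, so that the spread in TBI (coefficient of variation 52.8%) was far wider than in sham (12.9%). The log2 difference was -0.10 (SE 0.359, 95% interval -0.96 to 0.76). Without TBI1, the library with the striatal genes, it was -0.61 (unadjusted p 0.0295, adjusted p 0.906 in edgeR), and without TBI3 it was 0.18. The ratio of Dgat2 to Dgat1 per exonic base ran 10.2, 7.26 and 6.01 over the sham libraries against 8.54, 4.93 and 2.90 for TBI.

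Hilpda encodes a small inhibitor of adipose triglyceride lipase and is a well known target of the hypoxia-inducible factors. It had 5.36, 7.55 and 3.70 CPM in sham and 5.68, 6.73 and 4.07 CPM in TBI. The groups covered nearly the same range, and the log2 difference was -0.011 (SE 0.339, 95% interval -0.82 to 0.80). Its sign changed with the library left out, from -0.24 without Sham3 to 0.28 without Sham2. At this spread, true differences anywhere within the 95% interval were not excluded.

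Levels of different genes can be set side by side only per length, here as CPM per kilobase of exonic sequence. In sham, Dgat2 led at 29.6 ± 3.81, followed by Pnpla2 at 5.82 ± 0.922, Plin3 at 5.73 ± 2.50, Hilpda at 5.02 ± 1.75, Dgat1 at 3.94 ± 0.900 and Abhd5 at 3.51 ± 0.709 (SD, n = 3 each). Plin2 followed at 2.20 ± 0.512, Ldah at 1.55 ± 0.111, Lipe at 1.49 ± 0.143 and Plin4 at 0.651 ± 0.463. The sham ranges of neighbours in this order were apart for Dgat2 and Pnpla2, for Abhd5 and Plin2, for Plin2 and Ldah, and for Lipe and Plin4. The other neighbours overlapped and cannot be ordered.

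In TBI, Ldah stood at 4.77 ± 1.17 CPM per kilobase, with Hilpda at 4.98 ± 1.21, Dgat1 at 5.09 ± 0.372, Abhd5 at 4.07 ± 0.250 and Plin2 at 3.28 ± 0.723 (SD, n = 3 each). The TBI range of Ldah overlapped those of these 4 genes and of Plin3 (6.85 ± 1.60). Compared within libraries, Ldah lay above Plin2 in each TBI library (5.63, 5.25 and 3.44 against 4.11, 2.97 and 2.77) and below it in each sham library. Against Hilpda, Dgat1, Abhd5 and Plin3 the order changed between TBI libraries, so these cannot be ordered against Ldah. Lipe, which matched Ldah in sham, stood at 1.90. The ratio of Ldah to Lipe per length was 0.996, 1.04 and 1.09 in Sham1, Sham2 and Sham3 and 3.02, 2.62 and 1.87 in TBI1, TBI2 and TBI3. The ratio of Plin3 to Plin2 ran 3.20, 1.07 and 4.28 over the sham libraries against 1.22, 2.68 and 2.73 for TBI, without such a separation.

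**Figure D4:**
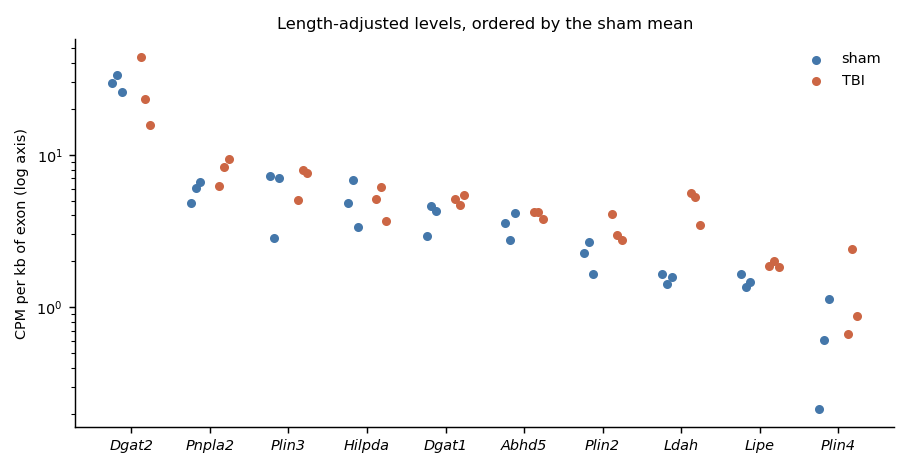
Level per length (CPM per kilobase of exonic sequence, log axis) of the 10 genes in the order of their sham means, with 1 point per library. Ldah has a mean of 1.55 CPM per kilobase in sham, beside Lipe at 1.49, and of 4.77 in TBI.

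The wider droplet pathways were examined through 7 lists holding 113 genes that are not among the 10, of which 104 passed the filter. None was called by edgeR or by DESeq2 with its defaults. By sign, 69 were higher and 35 lower in TBI, with a median log2 difference of 0.076 that ran from 0.032 without TBI3 (0.036 without Sham2, 0.045 without TBI2) to 0.13 without Sham3, and the quartiles of all tested genes were -0.18 and 0.21. At an unadjusted p under 0.05 there were 2 higher and 2 lower genes, against 2.16% and 2.13% of all genes. The groups did not overlap for 9 genes that were higher and 5 that were lower, against 4.77% and 5.45% of all genes.

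The counts for single lists include the members other than Ldah that belong to them, and a gene can be on more than 1 list. Of the genes for droplet coat and size, 19 of 22 were tested, 13 higher and 6 lower, with a median log2 difference of 0.12. The most abundant per length were Rab7 (0.11), a small GTPase of late endosomes, Rab18 (0.035), a GTPase found on droplets, and Hsd17b11 (0.20), a droplet-bound dehydrogenase. Of the genes for droplet formation at the endoplasmic reticulum, 11 of 12 were tested, 5 higher and 6 lower, with a median of -0.00020. Acsl3, which activates fatty acids on nascent droplets, had a log2 difference of 0.15, the membrane-shaping Reep1 had -0.029 and Atl1 had 0.024.

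Of the genes for neutral lipid hydrolysis, 16 of 18 were tested, 12 higher and 4 lower, with a median of 0.082. The monoglyceride lipase Mgll had a log2 difference of -0.093, and Abhd12 had 3.0e-05, and the cholesterol ester hydrolase Nceh1 had 0.0041. Of those for triglyceride synthesis, 18 of 20 were tested, 10 higher and 8 lower, with a median of 0.086. The acyltransferase Agpat4 averaged 51.4 ± 6.60 CPM over the sham mice against 39.4 ± 3.45 CPM after TBI (SD, n = 3), for a log2 difference of -0.38 (SE 0.142, unadjusted p 0.0325, adjusted p 0.982 in edgeR). Gpat2, an acyltransferase best known from testis, had counts of 0, 0 and 4 in sham and 12, 13 and 12 in TBI, which are too low for a fold to be given. The abundant Plpp3 and Agpat3, a lipid phosphatase and an acyltransferase, had log2 differences of 0.069 and 0.11, and without Sham2 that of Plpp3 was -0.27.

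Of the 12 genes for sterol ester turnover and sterol export, 11 were tested and 11 had a value above 0, with a median of 0.20. Nceh1 (0.0041), Soat1 (0.0049) and Lipa (0.015) lay near 0 (the last 2 were named after their values were seen), each of them was below 0 with some library left out, and Nceh1 and Soat1 were also below 0 with DESeq2's size factors. The groups did not overlap for 1 of the 11, against 4.77% of all genes that were higher without overlap, and 0 had an unadjusted p under 0.05. Apoe, the main lipid carrier of astrocytes, averaged 1239 ± 296 CPM over the sham mice against 1451 ± 134 CPM after TBI, for a log2 difference of 0.23, which was 0.063 without Sham2 and 0.41 without Sham1, and Lcat had 0.21. The median of this list was 0.055 without Sham2, the library with the low oligodendrocyte sum and the high Gfap level. Of the 28 genes for fatty acid uptake, activation and oxidation, 28 were tested, 19 higher and 9 lower, with a median of 0.084. Acsl4, which activates arachidonic acid, averaged 99.7 ± 16.2 CPM over the sham mice against 69.4 ± 13.1 CPM after TBI, for a log2 difference of -0.52 (SE 0.186, unadjusted p 0.0274, adjusted p 0.982 in edgeR). With 1 library left out, Acsl4 ranged from -0.68 to -0.39, and another alternative run gave -0.25. The acyl-CoA binding protein Dbi had a log2 difference of 0.31, the glial ligase Acsbg1 had 0.40, and the fatty acid binding protein Fabp3 had 0.070, which was -0.11 without Sham2.

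All 15 hypoxia response genes were tested, 9 higher and 6 lower, with a median of 0.030. Car9, a carbonic anhydrase induced by low oxygen, had counts of 13, 32 and 18 in sham and 47, 36 and 58 in TBI, a log2 difference of 1.30 (SE 0.477, unadjusted p 0.0312, adjusted p 0.982 in edgeR). The abundant Ddit4 had 0.24, Bnip3 0.030 and the glucose transporter Slc2a1 0.27, and the groups overlapped for each of them.

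**Figure D5:**
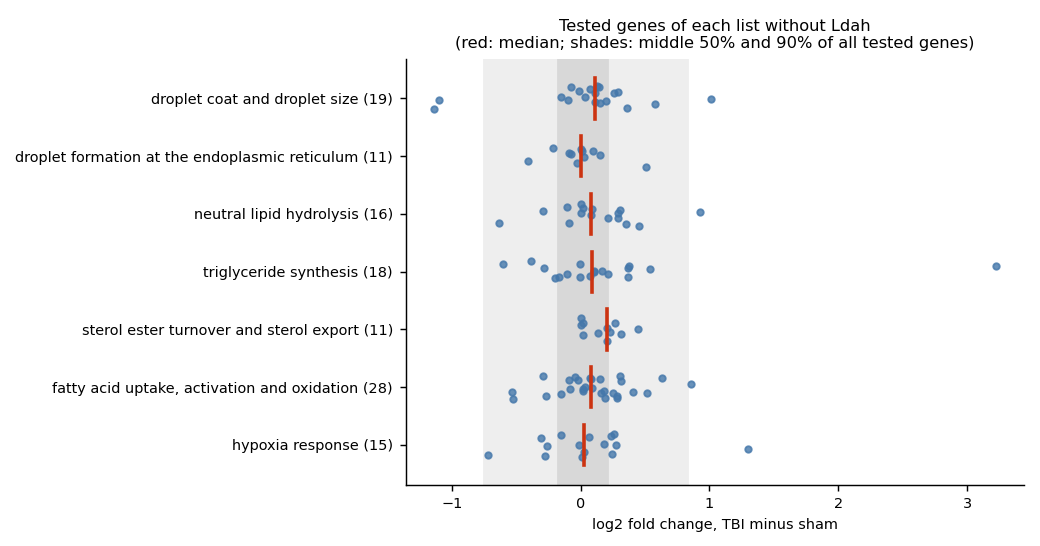
Log2 difference between TBI and sham for each tested gene of the 7 pathway lists (points), with the median of each list as a red bar and 2 shades for the quartiles (-0.18 to 0.21) and the 5% to 95% quantiles (-0.75 to 0.83) of all tested genes. Medians run from -0.00020 for droplet formation to 0.20 for sterol ester turnover, and most points lie inside the shaded range.

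The 5 genes whose log2 CPM followed that of Ldah most closely over the 6 libraries were Cib1 (Pearson r = 0.997), Tnfrsf4 (0.995), Rpl17-ps9 (0.988), Gm13680 (0.987) and Wrap53 (0.983). These were picked as the highest of 18795 correlations over 6 points that share their libraries and their depth, and are a description only. None is on the pathway lists. Cib1, which encodes a calcium and integrin binding protein, had counts of 627, 611 and 594 in sham and 723, 560 and 592 in TBI, a log2 difference of only 0.17. Tnfrsf4, a receptor of activated T cells, had counts of 4, 3 and 4 in sham and 29, 20 and 10 in TBI. Rpl17-ps9 is a pseudogene that may share reads with its parent, and its values are uncertain.

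On chromosome 12, the nearest tested protein-coding gene after Ldah was Gdf7, a growth factor of the bone morphogenetic protein family 12.2 kb away on the opposite strand. Gdf7 had counts of 8, 8 and 14 in sham and 21, 35 and 20 in TBI, a log2 difference of 1.50 (SE 0.567, adjusted p 0.982 in edgeR), with the TBI libraries above the sham libraries. Hs1bp3, 27.7 kb after Ldah, had a log2 difference of -0.025 (SE 0.188). Before Ldah, the nearest were Klhl29 and Atad2b, 2830 and 3160 kb away, with 0.028 and -0.042. The 9 other tested protein-coding genes within 1500 kb of Ldah ran from -1.38 to 1.50.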

How the data were processed

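Per the study's methods and the labels, reads were checked with FastQC and aligned to GRCm38 with HISAT2, and transcripts were assembled and quantified with StringTie. The authors deposited estimated counts per gene for each of the 6 libraries. How StringTie output was turned into counts, the annotation release and the use of strand are not given in the sources used here. Small values pile up at 4 (5109 values, against 2325 at 3), so the numbers are not a plain tally of reads. The authors used DESeq2 for their comparison.

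The deposited values were already whole numbers. They were matched by identifier without version to GENCODE vM21 symbols (52403 of 52550 genes). Testing was done in R 4.3.3 with edgeR 4.0.16 (limma 3.58.1), using filterByExpr, TMM scaling and a quasi-likelihood test of TBI against sham. Benjamini-Hochberg adjustment was made over 18795 genes. The 33755 genes under the filter were not tested. The design set edgeR as the test and DESeq2 1.42.0 as an alternative, and each library was left out in turn. Library totals were 31630936 to 41771872 estimated counts. The code was tested on simulated data. The 3 libraries per group are labelled as replicates.

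The members and gene lists were chosen with earlier results of these data known. Genes named beside the members are, for each pathway list, those with an unadjusted p under 0.05 and the 3 with the highest CPM per kilobase, the 5 genes most like Ldah, its nearest tested neighbours, and genes that overlap a member. Soat1, Lipa, marker genes and the genes of the closing observations were named after their values were seen. Exonic lengths and positions came from GENCODE vM21. RefSeq promoter windows were found for 8 of the 10 members. No protein sequences were used here.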

Additional observations from a re-analysis of the deposited data

How the results depend on the processing

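Ldah kept its direction under each alternative run, from 1.43 to 1.81 on the log2 scale, as did Plin2, Plin4, Pnpla2, Lipe, Dgat1 and Abhd5. The number of genes called was 46 with DESeq2 at its defaults and 43 with DESeq2 on the genes kept by filterByExpr, against 0 in edgeR. Settings that leave out Sham2 and TBI1, or TBI1 and TBI3, were chosen after seeing the data and called 3 genes and 1 gene. At an unadjusted p under 0.05, 128 genes were higher and 218 lower without TBI1 and TBI3. Leaving out 1 library at a time gave 0 to 1 called genes, 242 to 486 higher and 241 to 644 lower genes at an unadjusted p under 0.05. Among members other than Ldah, an unadjusted p under 0.05 appeared for Plin2 (0.0495) and Lipe (0.0469) with DESeq2 on filtered genes, for Plin2 without Sham2 (0.0378), for Pnpla2 (0.0230) and Dgat2 (0.0295) without TBI1, for Pnpla2 without Sham2 and TBI1 (0.0299) and for Pnpla2 with a replicate block (0.0387), and none was called.

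The deviations of same-numbered sham and TBI libraries from their group means had correlations of -0.10, -0.065 and 0.15. Those of differently numbered libraries ran from -0.18 to 0.21. Deviations from a mean of 3 libraries depend on one another, so these values could not decide whether libraries were paired. With a replicate block, 0 genes were called, 363 were higher and 360 lower at an unadjusted p under 0.05, Ldah stood at 1.60, Hilpda at 0.019, Lipa at -0.0086, Abhd12 at -0.0078 and Klhl29 at -0.0084.

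Some values near 0 changed sign with the scaling, the filter, the tool or the libraries used. Hilpda was 0.0036 with upper-quartile scaling, 0.25 without Sham2 and TBI1, and 0.28 without TBI1 and TBI3. Abhd12 was -0.0062 with DESeq2 at its defaults and with its size factors in edgeR, -0.00064 with DESeq2 on filtered genes and -0.00098 with a filter of 1 count, and with both of the first pair Nceh1 was -0.0033 and Soat1 -0.0016 and -0.0019. The median over the members other than Ldah was 0.43 without TBI1 and TBI3. In that setting the list medians were 0.26 for droplet coat, 0.068 for droplet formation and 0.0047 for neutral lipid hydrolysis. They were 0.048 for triglyceride synthesis, 0.13 for the sterol list, 0.21 for fatty acid genes and 0.18 for hypoxia genes. The sterol list had 0.051 without Sham2 and TBI1.

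With each library left out in turn, log2 differences ran from -0.067 to 0.47 for Plin3, -0.61 to 0.18 for Dgat2, -0.24 to 0.28 for Hilpda, -0.051 to 0.093 for Rab18, -0.036 to 0.35 for Hsd17b11, -0.066 to 0.34 for Acsl3, -0.13 to 0.072 for Reep1, -0.071 to 0.12 for Atl1, -0.11 to 0.060 for Abhd12, -0.30 to 0.10 for Mgll, -0.052 to 0.041 for Nceh1, -0.073 to 0.071 for Soat1, -0.24 to 0.14 for Lipa, -0.27 to 0.35 for Plpp3, -0.14 to 0.45 for Lcat, -0.11 to 0.25 for Fabp3, -0.056 to 0.099 for Bnip3, -0.20 to 0.20 for Klhl29, -0.27 to 0.11 for Atad2b and -0.14 to 0.068 for Hs1bp3. One library moved other values by over 1.5 times too, with Rab7 at 0.0067 without TBI1, Acsbg1 at 0.20, Dbi at 0.18 and Ddit4 at 0.12 without TBI3, Ddit4 at 0.42 and A730085K08Rik at 0.062 without TBI1, and Slc2a1 at 0.056 without Sham1 and 0.43 without Sham3. Medians ran from 0.23 (without TBI2) to 0.41 for the members other than Ldah, -0.017 to 0.21 for droplet coat, -0.046 to 0.023 for droplet formation, 0.071 to 0.16 for triglyceride synthesis, 0.055 to 0.32 for the sterol list, 0.0084 (without Sham2) to 0.14 for neutral lipid hydrolysis, 0.027 (without TBI3) to 0.21 (without TBI1) for fatty acid genes and 0.0056 (without TBI2) to 0.13 (without Sham2) for hypoxia genes. The causes were not tested. With 3 libraries a group, the spread between libraries, as in Plin4 and Dgat2, limits the size of difference that could be seen.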

Other observations

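A few genes of the wider lists stood out only after their values had been seen, and are given as values. Cidea, a droplet fusion protein best known from brown fat, had 9.80, 14.8 and 5.60 CPM in Sham1, Sham2 and Sham3 and 1.52, 7.46 and 4.78 CPM in TBI1, TBI2 and TBI3, a log2 difference of -1.14 (SE 0.609, adjusted p 0.982 in edgeR's quasi-likelihood test), with overlapping groups. With 1 library left out it ranged from -1.69 without TBI2 to -0.75 without Sham2 and -0.72 without TBI1. Another alternative run gave -0.33. Ppara, a nuclear receptor that senses fatty acids, had 2.10, 0.922 and 2.50 CPM in sham and 4.26, 3.16 and 2.56 CPM in TBI, a log2 difference of 0.85 (SE 0.439), which was 0.53 without Sham2.

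Acsl5, a mitochondrial and droplet acyl-CoA synthetase, had a mean of 69.4 CPM in sham and 48.1 CPM in TBI, with the TBI libraries below the sham libraries, as for Acsl4. Its log2 difference was -0.53 (SE 0.222) and was -0.28 without Sham2, and it was not called.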
